A study of Mus musculus with 9 samples.

Results

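The CXC chemokines examined here were 8 genes, Cxcl1, Cxcl2, Cxcl9, Cxcl10, Cxcl12, Cxcl13, Cxcl14 and Cxcl16, taken by gene symbol from a count table of 23238 symbols. Their transcripts were counted in microglia from the brains of adult female C57BL/6N wild-type mice, sorted on day 1 by surface CD45, CD11b and P2ry12. The 9 libraries, 3 for each condition, were each made from 3 pooled mice. Normal mice had no treatment. NMO mice were injected in the striatum with patient NMO-IgG, antibody against the astrocyte water channel aquaporin-4, with human complement, which models the lesion of neuromyelitis optica. NMO+CL mice had the same injection and also clodronate liposomes, given into the peritoneum beforehand to deplete monocytes. Mice given control IgG or empty liposomes were not analysed here, so antibody, complement and the needle cannot be told apart, nor can clodronate and liposomes.

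CXC chemokines are small secreted proteins that direct the migration of leukocytes through G protein-coupled receptors. Those with a Glu-Leu-Arg motif, such as Cxcl1 and Cxcl2, attract neutrophils through Cxcr2, whereas the interferon-inducible ligands Cxcl9 and Cxcl10 attract activated T cells and NK cells through Cxcr3. Cxcl12, which signals through Cxcr4 and is bound by Ackr3, and Cxcl13, which signals through Cxcr5, organise resident and lymphoid cells, and Cxcl16 is made as a transmembrane protein that binds Cxcr6 and is shed by Adam10.

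Libraries held between 5788234 and 7837219 counts. All 10 microglial markers examined were detected in every group, including P2ry12, the surface receptor used for sorting, at 2443 ± 337 CPM (counts scaled to library size, mean ± SD, n = 3) in the Normal libraries, 1648 ± 100.2 in NMO and 353 ± 92.1 in NMO+CL. NMO replicate 2 had 0 counts for 26 genes that had at least 50 counts in each of the other 8 libraries, where NMO replicate 3 and NMO+CL replicate 3 each lacked 1 such gene. In NMO against Normal, fold changes of CXC chemokines that turn on NMO replicate 2 are given with and without it. The study's methods describe the 3 pools of a group as independent biological replicates.

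Of the 8 genes, 5 are on chromosome 5 in GRCm38 (GENCODE M21 annotation). Cxcl1 (chr5:90891241-90893115) and Cxcl2 (chr5:90903871-90905938) lie on the plus strand, 10.8 kb apart. Cxcl9 (chr5:92321347-92328079) and Cxcl10 (chr5:92346638-92348889) lie on the minus strand, 18.6 kb apart, and Cxcl13 (chr5:95956951-95961068) is on the plus strand. Cxcl12 is on chromosome 6 (chr6:117168535-117181367, plus strand), Cxcl14 on chromosome 13 (chr13:56288643-56296551, minus strand) and Cxcl16 on chromosome 11 (chr11:70453983-70459984, minus strand). The 3′ end of Cxcl10 overlaps an exon of Art3 on the other strand. Whether counting used strand was not stated, so reads of the pair cannot be told apart, and Art3 itself had 0 to 29 counts per library.

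RefSeq promoters of build GRCm38.p6 were found for 7 of the 8 genes, all but Cxcl16. The 250 bases before the start of the 4 inducible chemokines are shown because these genes are known targets of NF-kB and interferon signalling and are the ones with kB-like letters. Capitals mark matches to kB-like letters (GGG, 2 free bases, TT, 1 free base, CC) or to ISRE-like letters (interferon-stimulated response element: GAAA, 2 free bases, GAAA), searched on both strands. Distances are counted from the RefSeq start of each gene, which for Cxcl1 and Cxcl2 lies a little inside the GENCODE gene given above. Each sequence is read 5′ to 3′ on the strand of its gene, from chr5:90890995-90891244 (plus) for Cxcl1, chr5:90903649-90903898 (plus) for Cxcl2, chr5:92328080-92328329 (minus) for Cxcl9 and chr5:92348890-92349139 (minus) for Cxcl10.
Cxcl1: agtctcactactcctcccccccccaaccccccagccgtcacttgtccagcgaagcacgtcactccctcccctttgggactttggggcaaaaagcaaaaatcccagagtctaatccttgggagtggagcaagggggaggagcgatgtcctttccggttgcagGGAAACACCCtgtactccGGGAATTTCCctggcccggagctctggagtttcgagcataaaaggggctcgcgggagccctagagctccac
Cxcl2: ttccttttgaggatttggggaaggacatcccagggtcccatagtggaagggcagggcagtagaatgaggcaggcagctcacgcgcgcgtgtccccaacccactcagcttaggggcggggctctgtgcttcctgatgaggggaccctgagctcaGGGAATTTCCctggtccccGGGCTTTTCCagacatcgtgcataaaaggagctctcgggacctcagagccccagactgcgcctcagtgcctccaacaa
Cxcl9: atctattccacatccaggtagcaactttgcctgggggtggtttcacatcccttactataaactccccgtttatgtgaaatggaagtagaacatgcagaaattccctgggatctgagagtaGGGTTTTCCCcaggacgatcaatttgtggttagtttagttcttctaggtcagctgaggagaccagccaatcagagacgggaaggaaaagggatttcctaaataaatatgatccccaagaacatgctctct
Cxcl10: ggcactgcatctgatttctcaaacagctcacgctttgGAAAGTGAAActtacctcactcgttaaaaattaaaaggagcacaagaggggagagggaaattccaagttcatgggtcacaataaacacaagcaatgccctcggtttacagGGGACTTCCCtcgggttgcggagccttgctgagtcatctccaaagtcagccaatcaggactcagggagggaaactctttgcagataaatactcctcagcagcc

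Cxcl1 and Cxcl2 each held 2 kB-like matches, which start 89 and 71 bases before the start of Cxcl1 and 97 and 78 bases before that of Cxcl2, and both promoters hold GGGAATTTCC. The match at 89 bases in Cxcl1 is on the opposite strand, where the printed letters are its reverse complement. Cxcl9 held 1 match at 130 bases. Cxcl10 held 1 kB-like match at 103 bases and 1 ISRE-like match at 213 bases, GAAAGTGAAA. Cxcl14 held only an ISRE-like match, at 172 bases, and no match was found in the windows of Cxcl12 and Cxcl13. Over all 32536 distinct promoters of the table, trimmed to the same length, 4.11% held the kB-like and 2.98% the ISRE-like letters. A match describes the letters and not a site in use.

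Transcripts of the 2 neutrophil attractants differed in detection. Cxcl1 had 6 counts in Normal replicate 3 and 0 in each of the other 8 libraries, where 0 allows up to 3 counts, so no fold was computed. Cxcl2 had 7.33, 0.602 and 5.22 CPM in Normal replicates 1, 2 and 3, against 14.1, 14.8 and 17.6 in NMO and 18.1, 14.4 and 13.5 in NMO+CL. All 6 libraries of injected mice were above all 3 Normal libraries, and the injected groups overlapped each other. The lowest Normal library, replicate 2, held 4 counts of Cxcl2, whereas the injected libraries held 84 to 124. In order, NMO (15.5 ± 1.86 CPM) and NMO+CL (15.3 ± 2.45) did not differ beyond their spread, and Normal was lowest (4.38 ± 3.44; mean ± SD, n = 3). RNA of a sorted pool was measured, so fewer cells of a type and less RNA per cell cannot be told apart here or in the results that follow.

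**Figure D1:**
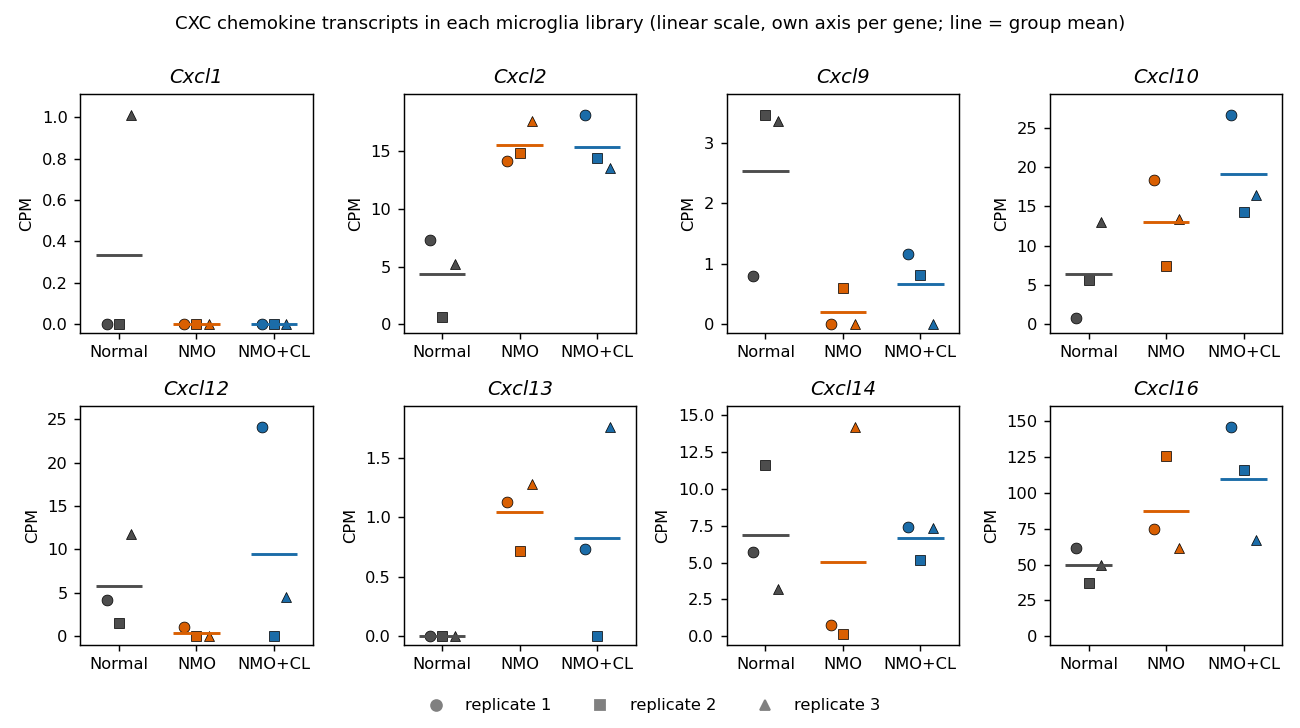
Each panel plots 1 CXC chemokine in CPM on a linear axis of its own, with a point for each of the 9 libraries (marker shape, replicate number) and a line at the group mean. Cxcl2 is at 13.5 CPM or more in all injected libraries and at 7.33 or less in Normal, Cxcl16 is at or below 61.4 in Normal and at or above 61.8 in the others, and Cxcl13 is at 0 in Normal.

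The plot of the 8 genes by library shows that NMO also did not overlap Normal in Cxcl9, Cxcl12 and Cxcl13, where the counts were small. Cxcl9, the T cell attractant, had 5, 23 and 20 counts in Normal, against 0, 5 and 0 in NMO and 8, 5 and 0 in NMO+CL. The highest NMO library and the lowest Normal library had the same count, and they separated only after scaling, at 0.599 and 0.797 CPM. Group means were 2.54 ± 1.51 CPM in Normal, 0.2 ± 0.346 in the NMO libraries and 0.659 ± 0.598 in NMO+CL. Exact two-sided permutation tests gave p = 0.1 for NMO against Normal, the smallest that 3 against 3 libraries allow, p = 0.4 for NMO+CL against NMO and p = 0.3 for NMO+CL against Normal.

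Cxcl10, the other interferon-inducible ligand, had 0.797, 5.57 and 13 CPM in Normal, against 18.4, 7.42 and 13.4 in NMO and 26.6, 14.3 and 16.5 in NMO+CL. NMO overlapped both other groups, whereas each NMO+CL library was above each Normal library. The order was NMO+CL (19.1 ± 6.55 CPM), NMO (13.1 ± 5.48) and Normal (6.44 ± 6.13), and neighbours in that order did not differ beyond their spread.

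Cxcl12, a ligand made by stromal and vascular cells as well as by glia, was uneven within each group. It had 4.14, 1.5 and 11.8 CPM in Normal, 1.01, 0 and 0 in the NMO libraries and 24.1, 0 and 4.48 in NMO+CL. The counts were 26, 10 and 70 in Normal, against 8, 0 and 0 in NMO and 165, 0 and 28 in NMO+CL. All NMO libraries were thus below all Normal libraries, while NMO+CL ran from 0 to the highest value of the series and overlapped both. Normal (5.81 ± 5.34 CPM) and NMO+CL (9.52 ± 12.8) did not differ beyond their spread, and NMO was at 0.335 ± 0.581.

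Cxcl13, the B cell attractant, was the member whose counts were absent from Normal. It had 0 counts in each Normal library, 9, 6 and 8 in NMO and 5, 0 and 11 in NMO+CL. Against a floor of the 3 counts that 0 allows in each Normal library, the NMO mean was 2.18-fold (exact two-sided permutation p = 0.1, the smallest possible). The NMO+CL mean was 1.74-fold that floor, with 1 library at 0 and overlap with Normal (exact permutation p = 0.4). These folds leave out the spread between libraries. With no filter on low counts, edgeR gave adjusted p = 0.621 for NMO against Normal and 0.358 for NMO+CL against Normal. NMO+CL and NMO overlapped (0.83 ± 0.885 and 1.04 ± 0.291 CPM, exact permutation p = 0.8).

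Cxcl14, a ligand expressed by many epithelial and stromal cells, overlapped in all pairs of groups. It had 5.74, 11.6 and 3.2 CPM in Normal, 0.754, 0.12 and 14.2 in the NMO libraries and 7.44, 5.18 and 7.37 in NMO+CL. NMO held both the 2 lowest and the highest library, and its spread, 5.04 ± 7.98 CPM, covered the means of Normal (6.84 ± 4.3) and NMO+CL (6.66 ± 1.28).

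Cxcl16 was counted most deeply, with 248 to 1053 counts per library. It had 61.4, 37.3 and 49.5 CPM in Normal, against 74.6, 126 and 61.8 in NMO and 146, 116 and 66.8 in NMO+CL. All injected libraries were above all Normal libraries, although NMO replicate 3 exceeded Normal replicate 1 by less than 1 CPM. NMO+CL (109.6 ± 39.9) and NMO (87.5 ± 34) did not differ beyond their spread, and Normal was lowest (49.4 ± 12).

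How the lesion moved these transcripts in microglia is the question of NMO against Normal. With edgeR's quasi-likelihood test over 12292 genes, 0 of the 5 tested CXC chemokines passed an adjusted p of 0.05, where 0.496% of all genes did. DESeq2 and limma-voom called 0 as well. At an unadjusted p under 0.05 edgeR gave 3 of the 5, where 9.51% of all genes were, and DESeq2 and limma-voom each gave 2, Cxcl2 and Cxcl16. The same 3 members were past the thresholds the study used, a 1.5-fold change with an unadjusted p under 0.05, where 7.96% of all genes were. Cxcl2 and Cxcl16 were past them as higher, where 5.2% of all genes were, and Cxcl12 as lower, where 2.77% were. Among the 5 tested members, these 3 were also those without overlap between groups, a pattern found in 9.21% of all tested genes as higher and in 8.2% as lower.

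Cxcl2 had a log2 fold change of 1.82 with a standard error of 0.642 (3.54-fold, 95% interval 0.47 to 3.18, edgeR adjusted p = 0.312). The edgeR estimate for Cxcl16 was 0.83 with a standard error of 0.314 (1.77-fold, 95% interval 0.16 to 1.49, adjusted p = 0.38). Without NMO replicate 2, which held the highest NMO value of Cxcl16, the estimate was 0.46, its unadjusted p was 0.16 (adjusted p = 0.754), and Cxcl2 was then the only member past the study's thresholds. Cxcl12 had an estimate of -4.01 with a standard error of 1.61 (95% interval -7.41 to -0.6, adjusted p = 0.429), and 2 of its 3 NMO libraries were at 0 counts. Without NMO replicate 2 it was -3.43, at an unadjusted p of 0.0614 (adjusted p = 0.643).

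Cxcl10 had a log2 fold change of 1.02 (SE 0.68, 95% interval -0.41 to 2.45, edgeR adjusted p = 0.716), and Cxcl14 one of -0.45 (SE 1.09, 95% interval -2.75 to 1.85, adjusted p = 0.974). Both intervals held 0. The Cxcl10 estimate was 0.5 without Normal replicate 1 and 2.01 without Normal replicate 3 (adjusted p = 0.95 and 0.52). Without NMO replicate 3, the 1 NMO library with over 10 counts of Cxcl14, the estimate of that gene was -3.92 (adjusted p = 0.196) here and 3.88 (adjusted p = 0.141) for NMO+CL against NMO. The median log2 fold change of the 5 tested members was 0.83, beside -0.01 over all tested genes. That median is the estimate of Cxcl16, which was 0.46 without NMO replicate 2.

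**Figure D2:**
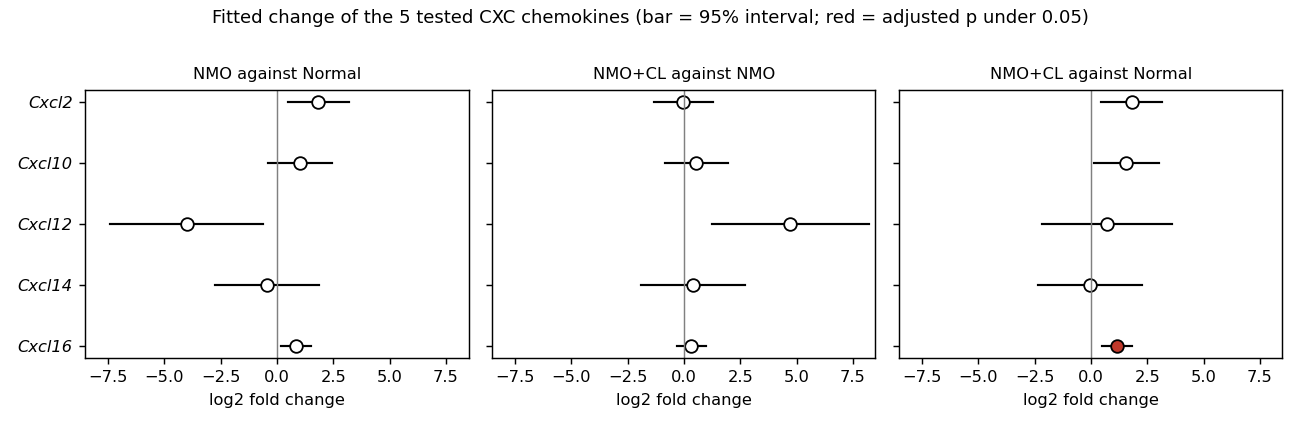
The log2 fold change (x axis) of the 5 tested CXC chemokines is plotted in each comparison as a point with its 95% interval from edgeR, and red marks an adjusted p under 0.05. Cxcl16 in NMO+CL against Normal, at 1.15, is the only red point, and the intervals of Cxcl12 and Cxcl14 are the widest in each panel.

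In injected mice, the effect of clodronate liposomes was read from NMO+CL against NMO, which share the injection. This contrast called 0 of the 5 tested members at an adjusted p under 0.05 by edgeR, DESeq2 and limma-voom alike, where 1.59% of all genes were called by edgeR. Each tool gave 1 member at an unadjusted p under 0.05, Cxcl12 for edgeR and DESeq2 and Cxcl14 for limma-voom, where 12.4% of all genes were under it by edgeR. Past the study's thresholds was Cxcl12 alone, as higher, where 4.09% of all genes were. No member was without overlap between the groups, a pattern found in 17.1% of all tested genes.

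Cxcl12 had a log2 fold change of 4.72 with a standard error of 1.65 (95% interval 1.24 to 8.2, edgeR adjusted p = 0.2). NMO+CL replicate 1 held 165 of the 193 counts of its group. Without that library the estimate was 2.65, its unadjusted p was 0.179 (adjusted p = 0.59), and no member was past the study's thresholds. The other members had estimates near 0 or within their error, at -0.02 for Cxcl2 (95% interval -1.31 to 1.27), 0.55 for Cxcl10 (-0.85 to 1.95), 0.41 for Cxcl14 (-1.89 to 2.71) and 0.32 for Cxcl16 (-0.33 to 0.98). Their adjusted p values from edgeR were 0.996, 0.822, 0.943 and 0.759 in that order. The intervals of these 4 members all include a 1.5-fold increase, so a change of that size was not excluded. For Cxcl16, whose highest NMO value was in NMO replicate 2 (126 CPM), leaving out 1 library gave 0.06 to 0.69. The lowest edgeR adjusted p of Cxcl16 was then 0.404, and its unadjusted p was under 0.05 in 1 of 16 alternatives. The median over the 5 members was 0.41, beside -0.01 over all genes.

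The comparison of NMO+CL with Normal sets both treatments against untreated microglia, and its Normal and NMO+CL libraries are those of the comparisons above. Cxcl16, the transmembrane chemokine, rose from 49.4 ± 12 to 109.6 ± 39.9 CPM, 2.22-fold, and was higher in 3 of 3 libraries. The log2 fold change of Cxcl16 was 1.15 (SE 0.316, 95% interval 0.49 to 1.82, edgeR adjusted p = 0.0278). It was the 1 member of 5 called, where 9.23% of all genes were called and 4.79% were called as higher. DESeq2 and limma-voom also called it (adjusted p = 0.00631 and 0.0326).

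The call of Cxcl16 was kept in 12 of 16 alternatives. It was lost without Normal replicate 2 (0.99, adjusted p = 0.126), Normal replicate 3 (1.15, adjusted p = 0.0913), NMO+CL replicate 1 (0.89, adjusted p = 0.12) or NMO+CL replicate 2 (1.11, adjusted p = 0.0899), each from edgeR. Over all alternatives its log2 fold change ran from 0.89 to 1.41.

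Cxcl2 and Cxcl10, both inducible chemokines, had larger estimates with larger errors and were not called by edgeR. Cxcl2 was at 1.81 (SE 0.643, 3.49-fold, 95% interval 0.45 to 3.16, adjusted p = 0.0933) and Cxcl10 at 1.57 (SE 0.686, 2.97-fold, 95% interval 0.12 to 3.01, adjusted p = 0.181). With Cxcl16 they made 3 members past the study's thresholds, all as higher, where 9.9% of all genes were. The same 3 did not overlap between groups, as did 13.8% of all genes in that direction. Cxcl2 had an unadjusted p under 0.05 in 16 of 16 alternatives and Cxcl10 in 13. The Cxcl2 estimate was 1.29 without Normal replicate 2 and 2.41 without Normal replicate 1, and that of Cxcl10 was 1.05 without Normal replicate 1 (edgeR adjusted p = 0.379) and 2.57 without Normal replicate 3 (adjusted p = 0.0688). Cxcl12 was at 0.71 (95% interval -2.18 to 3.61, edgeR adjusted p = 0.853) and Cxcl14 at -0.04 (-2.33 to 2.25, adjusted p = 0.992). The median over the 5 members was 1.15, beside -0.01 over all genes.

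**Figure D3:**
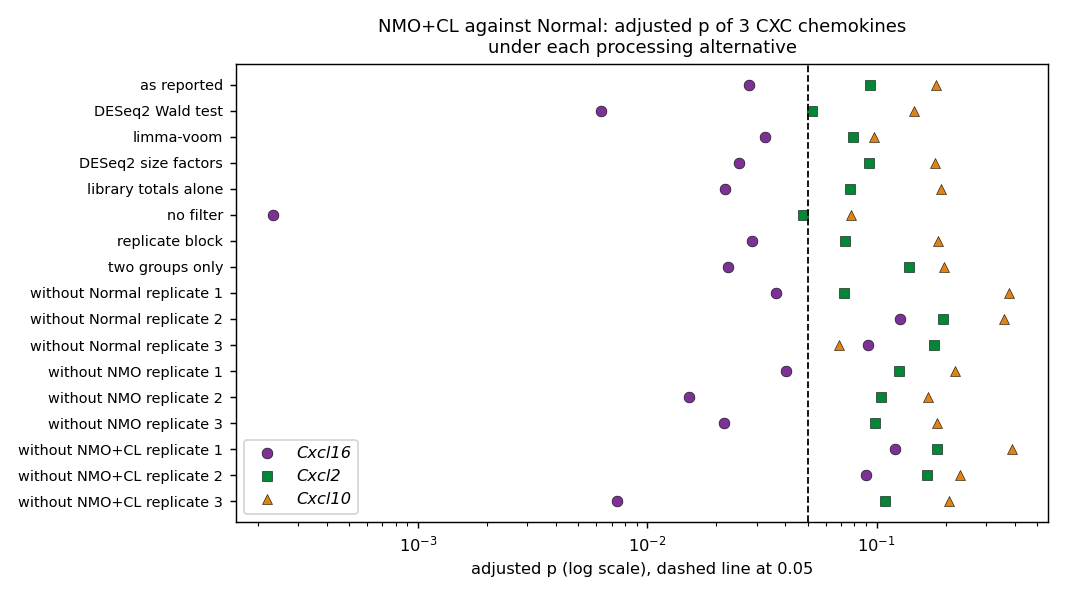
The adjusted p (x axis, log scale, dashed line at 0.05) of Cxcl16, Cxcl2 and Cxcl10 in NMO+CL against Normal is plotted as reported and under each of 16 alternatives (rows). Cxcl16 is left of the line in 12 of them, Cxcl2 only with no filter on low counts (0.0479), and Cxcl10 in none, its lowest value being 0.0688.

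The remaining CXC ligands and the receptors were examined for the same libraries, and none was called by edgeR, DESeq2 or limma-voom in any comparison. Of 7 further ligands, 3 were tested, Cxcl15, Cxcl17 and Pf4, with 0 at an unadjusted p under 0.05 by edgeR. In NMO+CL against NMO, Cxcl17 was under it by DESeq2 and Cxcl15 by limma-voom, as was Cxcl15 by limma-voom in NMO against Normal. Cxcl3 and Cxcl5, which also attract neutrophils, had 0 counts in all libraries, and Ppbp had 9 counts in 1 Normal library, 26 in 1 NMO+CL library and 0 in the others. Cxcl11, which shares Cxcr3 with Cxcl9 and Cxcl10, had at most 14 counts in a library. Cxcl15 had 0 counts in NMO replicate 2 and 191 to 546 in the other 8 libraries, and is thus 1 of the 26 genes that this library lacked.

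Of 8 receptors, 5 were tested and none had an unadjusted p under 0.05 with any of the 3 tools. Cxcr2, the receptor of Cxcl1 and Cxcl2, was at 2.08 ± 0.501 CPM in Normal, 1.62 ± 0.844 in the NMO libraries and 3.07 ± 1.31 in NMO+CL. Cxcr4, the receptor of Cxcl12, was at 1.94 ± 2.29, 1.75 ± 2.5 and 0.971 ± 1.41 CPM, and Ackr3, which also binds Cxcl12, at 1.66 ± 0.684, 1.14 ± 1.04 and 1.12 ± 1.31. The libraries of each of these receptors overlapped in all pairs of groups. Cxcr6, the receptor of Cxcl16, was at 2.33 ± 2.98 CPM in Normal, against 1.72 ± 1.87 in NMO and 1.07 ± 1.85 in NMO+CL. Cxcr5, the receptor of Cxcl13, was at 9.17 ± 4.64, 6.62 ± 5.31 and 3.24 ± 1.41 CPM. Its NMO+CL libraries were all below its Normal libraries only after scaling (log2 fold change -1.5, SE 0.814, edgeR adjusted p = 0.308). NMO+CL replicate 3 was at 4.16 CPM with 26 counts of Cxcr5, and Normal replicate 3 at 4.21 CPM with 25 counts. Cxcr1 had 0 counts in all libraries and Ackr1, a decoy receptor, had 9 in Normal replicate 1 and 0 in the others. Cxcr3, the receptor of Cxcl9 and Cxcl10, was under the count filter, with 0 counts in all NMO+CL libraries and up to 15 and 22 in Normal and NMO.

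Proteases that cut CXC ligands were all 8 tested, and 0 were called in any comparison by the 3 tools. Adam10, which sheds Cxcl16, was at 276, 299.8 and 310.4 CPM in the 3 groups (Normal, NMO, NMO+CL), and its log2 fold change of NMO+CL against Normal was 0.17 (95% interval -0.31 to 0.65, edgeR adjusted p = 0.763). Adam17, a related sheddase, was at 217, 198 and 186 CPM. Among the matrix metalloproteinases, Mmp2, which cleaves Cxcl12, was alone under an unadjusted p of 0.05 by edgeR in NMO+CL against NMO, at -1.19 (SE 0.399, adjusted p = 0.179). Against Normal, in NMO+CL Mmp14 was past the study's thresholds as higher (0.6, edgeR adjusted p = 0.189) and Mmp2 as lower (-0.88, adjusted p = 0.197).

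**Figure D4:**
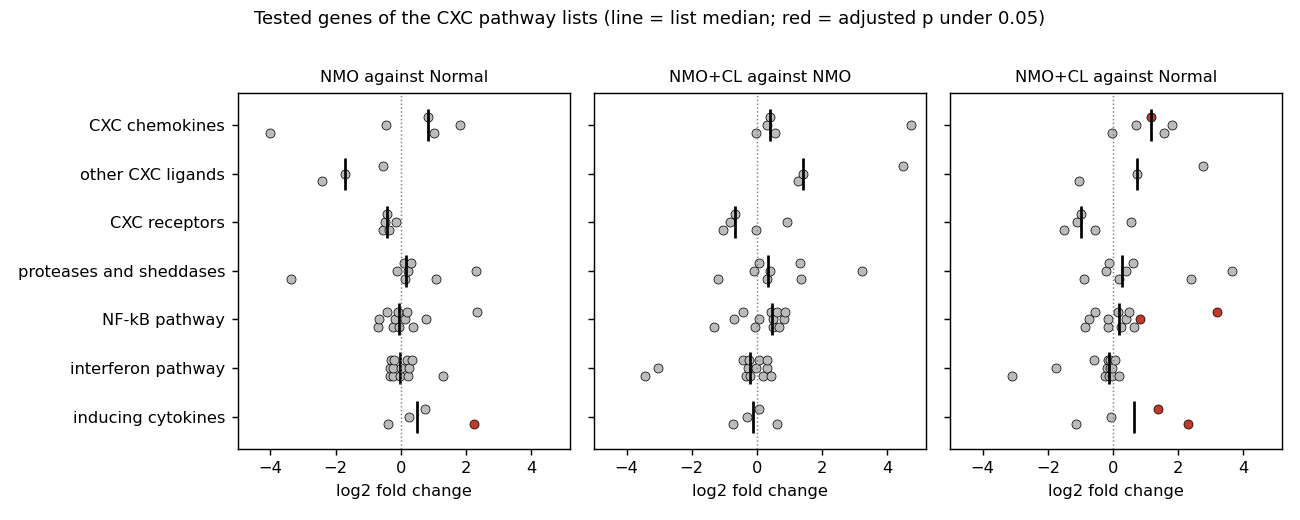
Each point is a tested gene of a CXC pathway list (rows), at its edgeR log2 fold change (x axis) in each of the 3 comparisons, with a line at the list median and red for an adjusted p under 0.05. Red points are Cxcl16, Nfkbia, Bcl3, Il1b and Tnf in NMO+CL against Normal and Il1b in NMO against Normal, all to the right of 0.

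Genes of NF-kB signalling had 2 of 12 called in NMO+CL against Normal, both higher, where 4.79% of all genes were called as higher. The median log2 fold change of the list was 0.19, beside -0.01 over all genes, and Nfkb1, which encodes an NF-kB subunit, was at -0.86 (SE 0.387, edgeR adjusted p = 0.196), past the study's thresholds as lower. Nfkbia, which encodes the inhibitor of NF-kB that NF-kB itself induces, had 542, 498 and 687 CPM in Normal, 677, 847 and 732 in the NMO libraries and 1026, 1137 and 894 in NMO+CL. It rose by 0.82 on the log2 scale (SE 0.178, edgeR adjusted p = 0.00632). Bcl3, a nuclear IkB protein, rose from 3.33 ± 4.16 to 30.9 ± 7.49 CPM (log2 fold change 3.2, SE 0.669, edgeR adjusted p = 0.00505). In NMO Bcl3 was at 17 ± 3.76 CPM, and against Normal it was called by DESeq2 alone of the 3 tools (edgeR adjusted p = 0.147). In the other 2 comparisons edgeR called 0 of the 12, with 2 at an unadjusted p under 0.05 in NMO against Normal (Bcl3 and Nfkbia, both as higher, where 9.51% of all genes were under it in either direction). There were 3 in NMO+CL against NMO, Rel and Nfkbia as higher and Relb as lower, where 12.4% of all genes were.

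Interferon receptors and their signalling genes, which act on Cxcl9 and Cxcl10, had 0 of 13 called by edgeR in any comparison. Of all genes, 0.496%, 1.59% and 9.23% were called in NMO against Normal, NMO+CL against NMO and NMO+CL against Normal. At an unadjusted p under 0.05 by edgeR were 0, 1 and 0 of the 13, where 9.51%, 12.4% and 22.3% of all genes were. DESeq2 called 1, Ifngr1, in NMO+CL against NMO, and limma-voom called 0. Irf1, an interferon-induced transcription factor, was at 109.6 ± 2.76 CPM in Normal, against 94.4 ± 1.34 in NMO and 99.2 ± 20.1 in NMO+CL. Ifng had 8 counts in Normal and 0 in the injected groups, and Ifnb1 had 0 throughout.

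Of the 7 cytokines that induce CXC chemokines, 4 were tested. Il1b had 15, 8.73 and 18.8 CPM in Normal, 91.2, 65.7 and 44.5 in the NMO libraries and 66.5, 67.7 and 73.8 in NMO+CL. It rose in NMO by 2.24 on the log2 scale (SE 0.329, edgeR adjusted p = 0.00372) and in NMO+CL by 2.29 against Normal (SE 0.33, adjusted p = 0.000293), with no overlap in either case. Tnf had 26.9, 20.2 and 16.5 CPM in Normal, against 38.2, 47.5 and 20.7 in NMO and 51.5, 75 and 38 in NMO+CL. It rose in NMO+CL against Normal by 1.37 (SE 0.36, edgeR adjusted p = 0.0219) and overlapped in NMO (0.74, adjusted p = 0.534). By edgeR, 1 of the 4 was called in NMO against Normal and 2 in NMO+CL against Normal, where 0.496% and 9.23% of all genes were called. In NMO+CL against NMO, 0 of the 4 were called and 0 had an unadjusted p under 0.05 by the 3 tools.

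Over the 9 libraries, the profiles of the members were compared as standardised log2 CPM by their root mean square distance, where 0 is an identical profile. Cxcl2 and Cxcl16 were the closest pair of members, at 0.714, followed by Cxcl2 and Cxcl10 at 1.09, and Cxcl14 and Cxcl16 were the farthest apart, at 1.67. Among 8164 tested genes with a mean of at least 10 CPM, the nearest to Cxcl16 were Prdx1 (0.222), Slc39a6 (0.286) and Pla2g4a (0.301). Those nearest to Cxcl2 were Htt (0.295), Rgp1 (0.3) and Chd1l (0.344). For Cxcl10 they were Psmg2 (0.295), Nup153 (0.354) and Naa16 (0.357). The genes nearest to Cxcl12, at 0.417 or more, were Abhd5, Galnt1 and Armc8, and those nearest to Cxcl14 were Gm12359 (0.322), Topors (0.329) and Ttn (0.371). Points share libraries and scaling, so these distances are a description.

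Markers of other cells were summed per library to show which moved with the members. Summed microglial markers ran from 34170.1 to 38815 CPM in Normal, 29414 to 34234 in the NMO libraries and 19906 to 27559 in NMO+CL, so that NMO+CL, where Cxcl16 was highest on average, was below both other groups (exact permutation p = 0.1 for each, the smallest possible). By edgeR, 7 of the 10 microglial markers fell in NMO+CL against Normal, where 4.43% of all genes were called as lower. Summed neutrophil markers, 7 of 8 genes, ran from 94.5 to 572 CPM in Normal, against 162 to 471 in NMO and 303 to 1385 in NMO+CL, and all pairs of groups overlapped. In NMO+CL against Normal, edgeR called 0 of the 7 with 4 at an unadjusted p under 0.05 (S100a8, S100a9 and Lcn2 as higher, Csf3r as lower), where 22.3% of all genes were. DESeq2 called 0, and limma-voom called 3, Lcn2, S100a8 and S100a9, where it called 1080 of 12292 genes in all. Monocyte markers also overlapped, at 25.3 to 56.7, 38.7 to 74.1 and 39.4 to 97.8 CPM, and Fn1 alone was called, as higher in NMO+CL than in Normal. The part of either in the levels of Cxcl2, Cxcl10 and Cxcl16 was not tested.

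Beside Cxcl12, markers of mural cells and fibroblasts, cells known to make it that lack the CD45 used in the sort, ran from 17.3 to 32.7 CPM in Normal, 2.63 to 27.7 in the NMO libraries and 20.4 to 44.4 in NMO+CL, with overlap in all pairs of groups. Pdgfrb and Rgs5, which define mural cells, were at 0 counts in all NMO libraries. In Normal replicates 1, 2 and 3, Pdgfrb had 0, 5 and 0 counts and Rgs5 had 10, 16 and 4. In NMO+CL, Pdgfrb had 16, 23 and 26 counts and Rgs5 had 0, 0 and 20. Pdgfrb was thus higher in each NMO+CL library than in each NMO library, and was called in that comparison by DESeq2 and not by edgeR (adjusted p = 0.198) or limma-voom. Col1a2, a fibroblast collagen, was also higher in NMO+CL than in NMO without overlap, at 1.01 on the log2 scale (SE 0.73, edgeR adjusted p = 0.638). The rest of the list overlapped between NMO+CL and NMO, with Col1a1 at 0.4 (adjusted p = 0.952), Dcn at 0.46 (adjusted p = 0.903) and Vtn, under the count filter, at 1, 10 and 3 counts in NMO and 10, 3 and 9 in NMO+CL. Pdgfra, a receptor of oligodendrocyte progenitors that fibroblasts also carry, had 28, 48 and 48 counts in Normal, 1, 0 and 3 in the NMO libraries and 102, 23 and 61 in NMO+CL. It rose in NMO+CL against NMO (log2 fold change 5.52, SE 1.15, edgeR adjusted p = 0.0207), had an estimate of -5 in NMO against Normal (SE 1.13, adjusted p = 0.0587) and was lowest in NMO. DESeq2 called Pdgfra in both of these comparisons, and limma-voom called it in neither. Cxcl12 was low in NMO too, but also at 0 in NMO+CL replicate 2, where Pdgfra had 23 counts. NMO replicate 2 had the lowest sum, 2.63 CPM, and 0 counts of Cxcl12, whereas NMO+CL replicate 2 had a sum of 25.8 CPM with 0 counts of Cxcl12. Border macrophage markers ran from 156 to 298 CPM in Normal, against 10.8 to 191 in NMO and 216 to 412 in NMO+CL, higher in NMO+CL than in NMO without overlap (exact permutation p = 0.1). Most of that sum was Cbr2, which had 0 counts in NMO replicate 2 and 741 to 2467 in the other 8 libraries, so it is among the 26 genes that this library lacked. The other tested markers of the list, Mrc1, Lyve1, Ms4a7 and F13a1, overlapped between NMO+CL and NMO, and Cd163 was at 0 in both injected groups. Endothelial markers ran from 56 to 82.1, 37.5 to 57.8 and 41 to 58.4 CPM and overlapped. The part of these cells in the level of Cxcl12 was not tested.

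**Figure D5:**
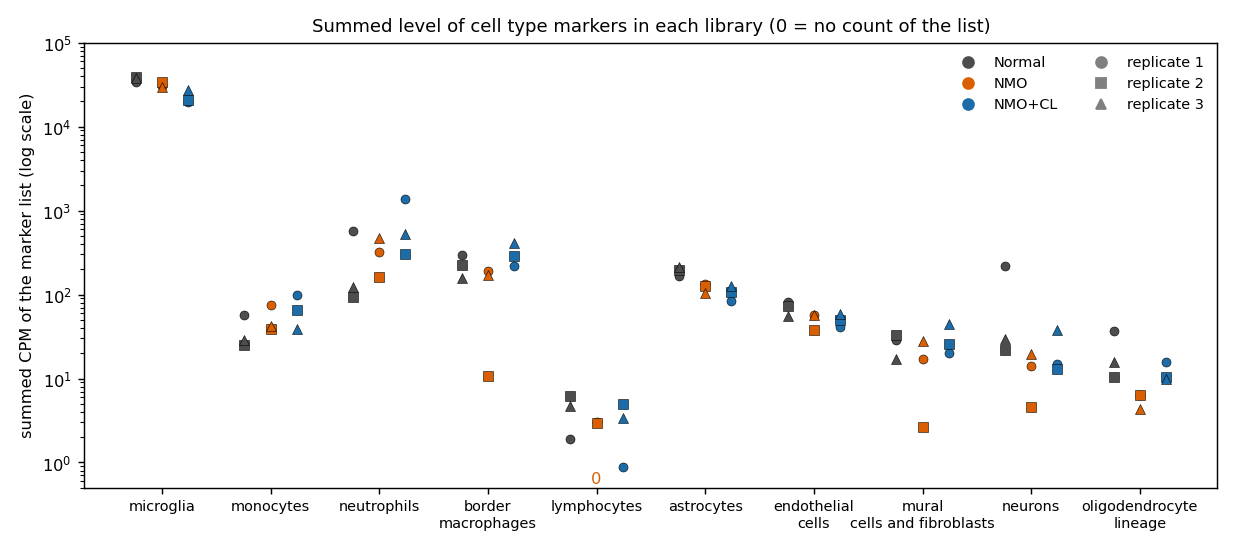
The summed CPM of each cell type marker list (y axis, log scale) is plotted for the 9 libraries, with color for the group, shape for the replicate number and a written 0 where no marker had a count. Microglial markers are lowest in NMO+CL (19906 to 27559 CPM), and NMO replicate 2 stands lowest for border macrophages (10.8), where it had 0 counts of Cbr2, and for mural cells and fibroblasts (2.63).

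The remaining lists are given beside Cxcl9, Cxcl13 and Cxcl14. Lymphocyte markers, 6 of 7 genes, were at 6.17 CPM or less in every library, with Cd3e at 0 throughout. Astrocyte markers were lower in both injected groups than in Normal without overlap, at 168 to 214 CPM in Normal, 103 to 133 in the NMO libraries and 84.6 to 127 in NMO+CL (exact permutation p = 0.1 for each). Slc1a3 made up most of these counts, and Gfap, which defines astrocytes, was at 0 in Normal and NMO. Neuronal markers ran from 21.7 to 219 CPM in Normal, against 4.55 to 19.5 in NMO and 13 to 37.5 in NMO+CL, and markers of the oligodendrocyte lineage from 10.5 to 37, 4.32 to 6.41 and 9.93 to 15.9. Both sums were lower in NMO than in Normal without overlap (exact permutation p = 0.1), as was Cxcl9, and the oligodendrocyte lineage sum was higher in NMO+CL than in NMO without overlap (exact permutation p = 0.1). Of 30 pairs of list and comparison, 8 did not overlap. Meg3, of the neuronal list, was at 169.7, 9.93 and 13.8 CPM in Normal and 3.9, 3.83 and 6.88 in NMO, and was called as lower by edgeR (adjusted p = 0.0493) and not by DESeq2 or limma-voom. The part of these cells in the levels of the 3 chemokines was not tested.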

How the data were processed

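Per the study's methods and the labels, the authors prepared QuantSeq 3′ libraries, aligned single-end reads with Bowtie2 and counted reads over genes with Bedtools, multiple alignments included. The submitters' processing notes give build mm10, the same assembly as GRCm38, and the annotation and use of strand are not given in the sources used here. The deposited values are raw read counts per gene, 23282 entries for 23238 symbols, and entries of a repeated symbol were summed (no member was repeated). A single ribosomal RNA entry, Rn45s, took 16% to 31% of counts. Groups came from the sample titles.

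Counts were analysed in R 4.3.3 with edgeR 4.0.16. Genes were kept by filterByExpr (minimum count 10, minimum total 15), which left 12292 genes and 5 of the 8 members. Library sizes were scaled by TMM, and quasi-likelihood tests, two-sided, used all 9 libraries and a coefficient for each group. Adjusted p values are Benjamini-Hochberg values over the 12292 genes. The common biological coefficient of variation was 0.519. Members under the filter and marker sums were compared by exact two-sided permutation tests. In a simulation of NMO against Normal with 11688 genes, 108 of 200 genes changed 4-fold were recovered (54%), with 6 false among 114 calls, so smaller changes can be missed at this spread.

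CPM are counts relative to TMM-scaled totals, and errors are standard deviations between libraries. Floors and intervals of counts cover counting error only, since reads carried no molecular identifiers used here. A fold against a group at 0 counts used a floor of 3 counts per library. Replicates differed by more than counting error (chi-square per degree of freedom 21.9 to 51.1). All 8 members were named, with pathway genes where called and the receptors, and the 3 genes nearest in profile to each tested member. A few other list genes (Adam17, Irf1, Nfkb1, Pdgfra, Col1a2 and the like) were chosen after their values were seen. The members and lists were chosen with earlier results of these data known. The 16 alternatives were DESeq2 1.42.0, limma-voom (limma 3.58.1), DESeq2 size factors, library totals alone, no filter, a replicate block, the 2 compared groups only and leaving out each library. Deviations from the group mean in same-numbered libraries of different groups had correlations near 0 (-0.0148 to 0.0302), and numbers were not treated as pairs. In the lists, 1 marker of neutrophils and 1 of lymphocytes, Ly6g and Trbc2, were not analysed here. In the last 500 bases of the longest transcript, 7 members resembled no other gene, and for Cxcl16 no match reached 95% identity over 50 bases.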

Additional observations from a re-analysis of the deposited data

How the results depend on the processing

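Of 240 estimates for single members under the alternatives, 216 kept direction and side of the threshold, 18 turned direction, 4 lost the call and 2 gained one. The cause was not tested. With no filter, 1 member was called in NMO+CL against NMO (Cxcl12) and 2 in NMO+CL against Normal (Cxcl16, Cxcl2). Leaving out 1 library gave 0 to 1 members called in NMO+CL against Normal, and past the study's thresholds 1 to 3 in NMO against Normal and 0 to 2 in NMO+CL against NMO. Genes called in all were 61, 196 and 1134 in the 3 comparisons (NMO against Normal, NMO+CL against NMO, NMO+CL against Normal). In the first they were 222 by DESeq2, 96 with library totals alone, 223 with no filter and 18 to 71 leaving out 1 library. In the second they were 465 by DESeq2, 496 with no filter, 84 with the compared groups only and 31 to 225 leaving out 1 library (31 without NMO+CL replicate 2). In NMO+CL against Normal, leaving out 1 library gave 635 to 1270. Library totals alone moved the median log2 fold change of all genes in NMO against Normal from -0.01 to 0.1.

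The turned estimates, all with adjusted p values of 0.702 or more, concern 3 members. Cxcl2 in NMO+CL against NMO was 0.01 by DESeq2, 0 by limma-voom and 0.01 with DESeq2 size factors, and leaving out 1 library gave -0.15 to 0.08 (0.08, 0.02 and 0.07 without NMO 3, NMO+CL 2 and NMO+CL 3). Cxcl12 in NMO+CL against Normal was -0.89 by limma-voom and, blocked by replicate number, -1.12, and leaving out 1 library gave -1.36 (NMO+CL 1) to 1.75. Cxcl14 in NMO against Normal ran from -3.92 (NMO 3) to 0.17, with 0.17, 0.06 and 0.12 without Normal 2, NMO 1 and NMO 2, and in NMO+CL against NMO from -0.16 to 3.88 (NMO 3), with -0.1 and -0.16 without NMO 1 and NMO 2. In NMO+CL against Normal it was 0.1 by limma-voom, 0.03 with library totals alone, and -0.38 to 0.58 leaving out 1 library (0.58 and 0.11 without Normal 2 and NMO+CL 2). Without NMO replicate 1, Cxcl12 has only 0 counts in NMO, and its estimates of -8.26 and 8.98 are set by the prior count.

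With the replicate block, 0, 0 and 1 members were called and 3, 1 and 3 were past the study's thresholds, and 53, 197 and 1124 genes were called in all. The numbers are not known to pair the samples. Among libraries of the other groups, 6 of 9 libraries correlated best with a library of their own number. Members under the filter had 2 pairs of groups without overlap under each scaling. The share of such pairs among other genes under the filter was not computed. Marker sums had 8 pairs without overlap, or 9 with DESeq2 size factors.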
